A study of Mus musculus with 4 samples.

Results

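Terminal nucleotidyltransferases add nucleotides to the 3′ ends of RNAs without a template, and this family was followed in mouse embryonic stem cells (ESCs) after knockdown of Cnot1. The 10 genes were chosen by name as the noncanonical poly(A) and uridyl transferases (Tent2, Tent4a, Tent4b, Tent5a, Tent5b, Tent5c, Tut1, Tut4, Tut7 and Mtpap) from the 50559 genes of the count table. RNA-seq was performed on E14 ESCs, a mouse embryonic stem cell line that here carried a tdTomato reporter transgene driven by the MERVL promoter, grown without feeder cells in serum replacement medium with leukemia inhibitory factor. Cells received 150 nM of an siRNA against Cnot1 (siCnot1) or of a non-targeting siRNA (siNT) and were collected after 48 h, and each group held 2 biological replicates, for 4 libraries. Of the siRNAs against Cnot1 that the study lists, the one used for these libraries is not named. These libraries allow no comparison between siRNAs against Cnot1, so effects of the siRNA itself and of Cnot1 loss cannot be told apart.

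CNOT1 holds together the subunits of CCR4-NOT, a complex that shortens poly(A) tails and thereby starts the decay of most mRNAs. Terminal nucleotidyltransferases act on the same ends in the other direction: some lengthen or protect the tail, while others add uridines to short tails or to small RNAs and so mark them for processing or decay. In ESCs, TUT4 and TUT7 are known for uridylating the precursor of let-7 once LIN28 has bound it, which keeps this differentiation-linked microRNA from maturing.

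All 10 genes carried a shared coding pattern, a glycine followed by serine or glycine and, further on, by a pair of aspartates set around 1 residue. This is the stretch in which nucleotidyltransferases hold the metal ions of their active site. The pattern was searched in the coding sequences of GENCODE M21 transcripts and was found 1 time in the longest one of each member. It occurred in 1.48% of the 21501 genes with a complete coding sequence, members included. The spacing that the pattern allows was widened until it also took in the Tent5 genes, so its presence in all members is no result. From the opening pair to the first aspartate there were 10 codons in 7 members and 15 codons in Tent5a, Tent5b and Tent5c. The 3 members with the longer spacing, all Tent5 paralogs, also had the lowest levels in ESCs. A link between spacing and level was not tested. Capitals mark the codons of the opening pair and of both aspartates, positions are those of GRCm38 on the strand given, and Mtpap is named only.
Tut1 (codons 204 to 221, chr19:8959763-8959816, plus strand): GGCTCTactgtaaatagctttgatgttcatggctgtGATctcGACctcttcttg
Tut4 (codons 1014 to 1031, chr4:108523227-108523280, plus strand): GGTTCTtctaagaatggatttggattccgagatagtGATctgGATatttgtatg
Tut7 (codons 1042 to 1059, chr13:59796847-59796900, minus strand): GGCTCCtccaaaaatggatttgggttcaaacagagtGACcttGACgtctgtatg
Tent2 (codons 201 to 218, chr13:93175537-93175590, minus strand): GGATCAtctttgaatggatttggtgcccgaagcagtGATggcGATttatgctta
Tent4a (codons 278 to 295, chr13:69512992-69514999 with an intron inside, minus strand): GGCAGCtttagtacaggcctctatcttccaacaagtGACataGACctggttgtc
Tent4b (codons 226 to 243, chr8:88245610-88246383 with an intron inside, plus strand): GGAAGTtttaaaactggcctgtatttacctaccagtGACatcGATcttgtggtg
Tent5a (codons 127 to 149, chr9:85326379-85326447, minus strand): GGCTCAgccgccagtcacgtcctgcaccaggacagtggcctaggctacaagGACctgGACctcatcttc
Tent5b (codons 108 to 130, chr4:133486141-133486209, plus strand): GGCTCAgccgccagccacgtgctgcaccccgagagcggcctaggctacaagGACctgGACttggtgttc
Tent5c (codons 73 to 95, chr3:100473154-100473222, minus strand): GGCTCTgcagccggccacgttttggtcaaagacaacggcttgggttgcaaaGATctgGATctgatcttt

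No stretch of 75 bases was shared between the transcripts of any members, so reads of one member were unlikely to be counted on another. Of the 75-base stretches of Tent2, 15.54% also occurred in a transcript of Gm15975 on chromosome 5. For Mtpap, 19.35% occurred in transcripts of genes that the count table does not list. In Tut7 9.135% of the stretches were shared with Etohd2 or Gm49354, and in Tent4a 1.032% with Nsun2. The other 6 members shared none.

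Counts on genes totalled between 32135824 and 32557440 per library. The knockdown was measured first. Cnot1 had a normalized level of 912 and 985 CPM (CPM, counts scaled by library size with edgeR's TMM factors) in the siNT replicates and 185 and 192 in siCnot1, 19.8% of the control mean, or -2.33 as log2 fold change (standard error 0.059, Benjamini-Hochberg adjusted p = 2.37e-18 by the quasi-likelihood test of edgeR). The ESC identity of the cells was visible in all libraries. The summed level of 9 ESC markers (among them Pou5f1, Sox2 and Nanog) ranged from 6733 to 7073 CPM in siNT and from 5586 to 5842 in siCnot1, and 7 of the 9 were lower. The 11 markers of 2-cell-like cells, a rare state of ESC cultures that expresses Zscan4, summed to 78.6 and 79.6 CPM in siNT and to 210 and 217 in siCnot1, with 8 higher. Markers of other lineages were low and their sums also shifted, but at most 2 genes of a list passed the test. Primitive endoderm markers (6 genes) summed to 14.8 and 12.6 CPM in siNT and to 22.9 and 22.1 in siCnot1, with Pdgfra and Dab2 higher. Without a call, Gata4 and Sox17 had higher means in siCnot1 and Gata6 and Sox7 lower ones. Early germ layer markers (5 genes, T at 0) went from 20.7 and 20.8 to 12.1 and 13.5 CPM, with Otx2 and Pax6 lower. Mixl1 and Fgf5 had higher means in siCnot1, without a call. Trophectoderm markers (6 genes) went from 38.7 and 41.0 to 33.2 and 28.9 CPM, with Krt8 and Krt18 lower. Without a call, Eomes (mean 17.9 CPM in siNT and 19.7 in siCnot1) and Cdx2 had higher means, and Gata3 and Elf5 lower ones. Fibroblast markers (6 genes, Col3a1 and Dcn at 0) went from 1.45 and 2.04 to 4.24 and 4.06 CPM, with Col1a1 higher. Without a call, Col1a2 and Lum had higher means in siCnot1 and Postn a lower one. What part these shifts in cell state had in the values below was not tested. In bulk RNA, fewer cells of a type and less RNA per cell cannot be told apart.

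After Cnot1 knockdown Tut1 fell to 78.8% and Tent2 to 81.6% of the control mean. No other member passed the test in either direction, although the values of Tent5a, Tent5b and Tent5c were above the control means. All 10 were among the 18144 genes with enough counts for edgeR's test, where 2 members were lower and 0 higher (adjusted p under 0.05). By the same rule 14.7% of all genes tested were lower, 15.0% higher and 29.7% either, so a count of 2 among 10 is near the background. DESeq2 and limma-voom also called 2 lower and 0 higher, but DESeq2 gave no adjusted p for Tent5a and so could not call it. At an unadjusted p under 0.05, 2 members were lower and 1, Tent5a, was higher in edgeR, against 39.3% of all genes tested in either direction. The median log2 fold change of the members was 0.06, against 0.0084 for all genes tested, and 5 members lay within 0.1 of 0. In 4 of the 10 members, Tent5a among them, the replicates of the groups did not overlap, against 63.9% of all genes tested. Tent5a had enough counts for the test only through its siCnot1 libraries, where it was high.

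**Figure D1:**
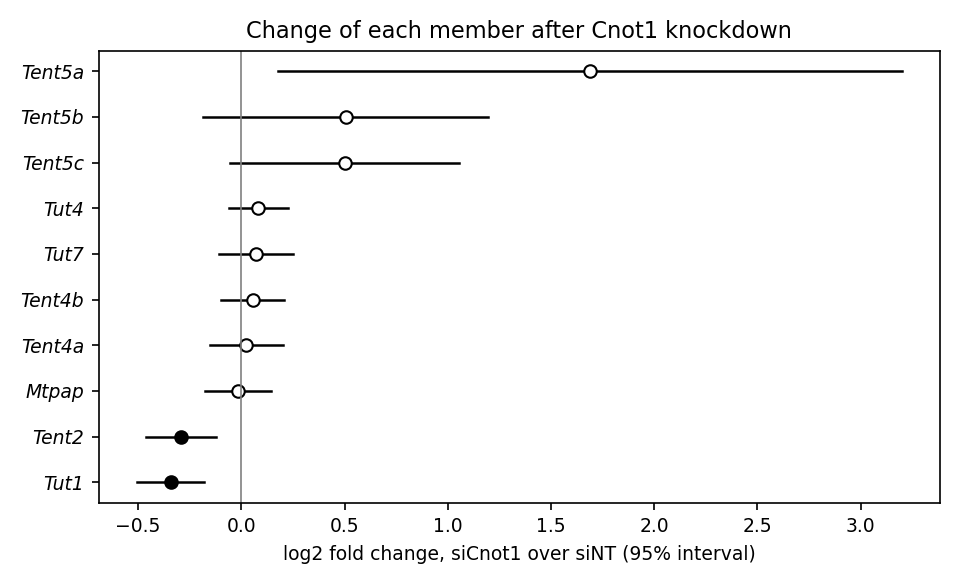
Log2 fold change of each member, siCnot1 over siNT, with its 95% interval from edgeR's quasi-likelihood fit (n = 2 libraries per group). Filled points (Tut1 at -0.34 and Tent2 at -0.29) have an adjusted p under 0.05 over all genes tested, and open points do not. The intervals of the Tent5 genes are several times wider than those of the other members.

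Levels differed far more between members than between groups. Levels were compared as normalized CPM per kilobase of exon (RPKM), which rests on the exon length deposited for each gene. Tut1 had the highest mean over the 4 libraries at 17.3, higher than 78.7% of the genes tested. It was followed by Tent4b (12.3), Tent4a (10.03), Tent2 (9.61), Tut4 (9.49), Tut7 (6.66) and Mtpap (5.28). These 7 genes all lay above the level of most genes tested, since the last of them, Mtpap, was higher than 57.2%. The Tent5 genes came last, with Tent5b at 1.39, Tent5c at 0.466 and Tent5a at 0.0743, the last higher than 3.54% of the genes tested. Neighbours in this order did not overlap within either group, except Tent4a and Tent2, whose values overlapped in siNT. Tent4a and Tut4, which are not neighbours in it, overlapped in both groups. Tent2 was above Tent4a and Tut4 in the siNT means and below both in siCnot1. Summed over the family the level was 71.4 and 77.5 RPKM in siNT and 71.0 and 70.2 in siCnot1. Tut1 made up 27.0% and 25.01% of that sum in siNT and 21.7% and 21.4% in siCnot1, while the 3 Tent5 genes together held between 1.30% and 3.44% in any library. The order and these shares depend on exon length, which was 3121 bases for Tut1 and 12446 for Tut4. Before division by length, Tut4 had the highest CPM of the members. Its means were 115 in siNT and 122 in siCnot1, against 60.3 and 47.6 for Tut1.

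**Figure D2:**
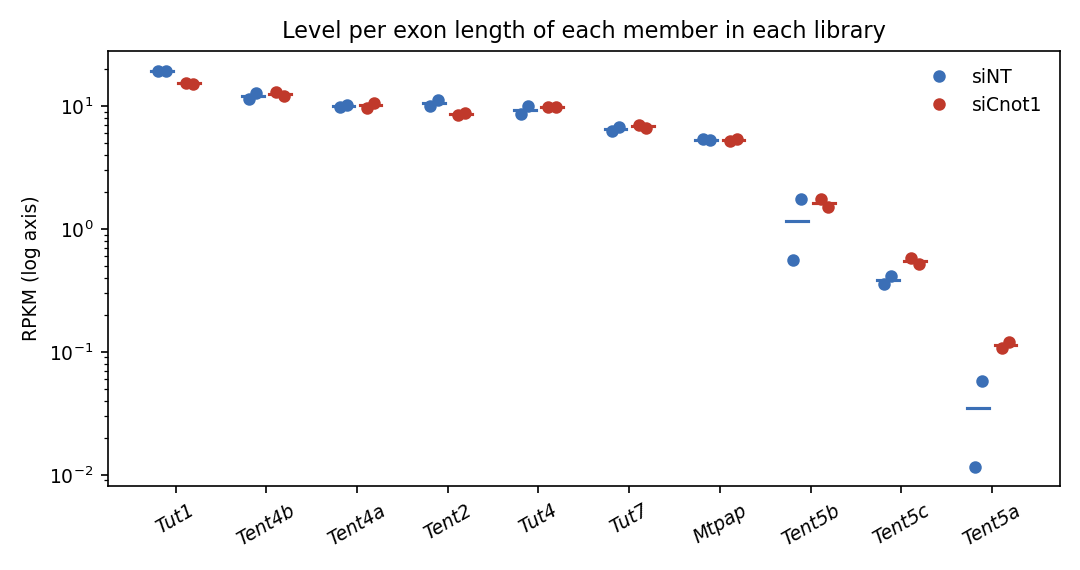
RPKM of each member in each library on a log axis, ordered by the mean over the 4 libraries. Points are libraries (siNT in blue, siCnot1 in red, n = 2 per group) and short lines are group means. The 7 higher members lie between 5.14 and 19.4, and the siCnot1 points of Tut1 and Tent2 lie below their siNT points.

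Among the uridyl transferases, the change was in Tut1. TUT1 adds the terminal uridines of U6 snRNA, a core RNA of the spliceosome, and has also been described as a nuclear poly(A) polymerase. Tut1 (chromosome 19, 8931196 to 8943574, plus strand, in the positions of the count table) had 60.1 and 60.5 normalized CPM in the siNT replicates and 48.2 and 46.9 in siCnot1. Both siCnot1 libraries were below both siNT libraries, and the replicates within each group were close together. The mean fell from 60.3 ± 0.268 to 47.6 ± 0.915 (SD over 2 libraries each), or by 0.34 on the log2 scale (standard error 0.079, adjusted p = 0.00188 in edgeR). That left 78.8% of the control level, with a 95% interval of the fold from 0.704 to 0.883. The call was kept when library totals replaced TMM scaling (log2 fold change -0.24, adjusted p = 0.0261 in edgeR). With 1 library left out it was kept without siCnot1 replicate 1 (adjusted p = 0.0404 in edgeR) and narrowly lost without siNT replicate 1, siNT replicate 2 or siCnot1 replicate 2 (adjusted p = 0.0571, 0.0503 and 0.0576 in edgeR).

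Tut4 and Tut7 encode the cytoplasmic enzymes that uridylate pre-let-7 and deadenylated mRNAs, and neither passed the test. Tut4 (chromosome 4, 108316607 to 108416612, plus strand) had 106 and 123 CPM in siNT and 122 and 122 in siCnot1. Its siCnot1 values lay inside the siNT range, with a log2 fold change of 0.08 ± 0.068 (SE, adjusted p = 0.399 in edgeR). The 95% interval of the fold was 0.960 to 1.17. Only library totals in place of TMM put Tut4 past the threshold (log2 fold change 0.19, adjusted p = 0.0363 in edgeR). That scaling moved the median of all genes tested from 0.0084 to 0.12, relative to which Tut4 was higher by 0.07.

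Tut7 (chromosome 13, 59919690 to 59971060, minus strand) had 40.7 and 43.6 CPM in siNT and 45.7 and 42.8 in siCnot1. The groups overlapped, with a log2 fold change of 0.07 ± 0.087 (SE, adjusted p = 0.595 in edgeR) and a 95% interval of the fold from 0.927 to 1.19. Exons of Etohd2 on the opposite strand cover 15.2% of the Tut7 exons. Etohd2 itself had 20 to 40 counts per library against 1266 to 1532 for Tut7. Whether the counting used strand is not given in the sources used here.

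The balance of the paralogs Tut4 and Tut7 can be read within each library, where scaling cancels. Per kilobase, Tut4 had 1.36 and 1.47 times the counts of Tut7 in siNT and 1.39 and 1.48 times in siCnot1. The log2 ratio differed by 0.016 between the groups, less than its spread within either (SD 0.078 in siNT and 0.068 in siCnot1, n = 2 per group, exact two-sided permutation p = 0.667, adjusted p = 1 over 5 paralog pairs). With 2 libraries against 2 this test cannot give a p below 0.333.

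Tent2 fell. It encodes GLD2, a cytoplasmic poly(A) polymerase known from oocytes and neurons, where it lengthens the tails of stored mRNAs, and it also adds single adenosines to microRNAs. Tent2 (chromosome 13, 93282363 to 93330662, minus strand) had 57.5 and 64.3 CPM in siNT and 48.7 and 50.7 in siCnot1. Both siCnot1 libraries were again below both controls, and the siNT libraries were farther apart than those of siCnot1. The mean went from 60.9 ± 4.77 to 49.7 ± 1.41 (SD over 2 libraries each), a log2 change of -0.29 (standard error 0.082, adjusted p = 0.00857 in edgeR) with a 95% interval of the fold from 0.726 to 0.918.

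The Tent2 call was less stable than that of Tut1. It was lost with library totals (log2 fold change -0.19, adjusted p = 0.0884 in edgeR), without a filter on low counts (-0.30, adjusted p = 0.0737 in edgeR) and in each of the 4 fits that left out 1 library (adjusted p between 0.0517 and 0.149 in edgeR), while the value stayed below 0 in each of these. Relative to the median of all genes tested, which library totals moved to 0.12, Tent2 was at -0.30. Gm15975, which shares sequence with Tent2, had 116 and 132 counts in siNT and 107 and 85 in siCnot1, against 1633 to 2016 for Tent2. With the counts of both summed, an alternative chosen after seeing the data, the log2 fold change was -0.30 (adjusted p = 0.00558 in edgeR).

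Tent4a and Tent4b encode nuclear and cytoplasmic poly(A) polymerases that place occasional guanosines in the tail, and such mixed tails are known to slow trimming by CCR4-NOT. Neither transcript passed the test. Tent4a (chromosome 13, 69646071 to 69682710, minus strand) had 46.2 and 47.97 CPM in siNT against 45.9 and 49.9 in siCnot1, the latter pair enclosing the former. Its log2 fold change was 0.02 ± 0.085 (SE, adjusted p = 0.863 in edgeR), with a 95% interval of the fold from 0.901 to 1.15. Tent4b (chromosome 8, 88925229 to 88989942, plus strand) had 70.8 and 79.3 CPM in siNT and 81.2 and 74.6 in siCnot1. The groups overlapped here too, with a log2 fold change of 0.05 ± 0.075 (SE, adjusted p = 0.637 in edgeR) and a 95% interval of the fold from 0.933 to 1.16.

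Within a library, Tent4a had 0.860 and 0.798 times the counts of Tent4b per kilobase in siNT and 0.745 and 0.882 times in siCnot1. The siCnot1 ratios lay on either side of the siNT ratios, and the log2 ratio differed by -0.032 (exact two-sided permutation p = 1).

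The Tent5 genes encode cytoplasmic poly(A) polymerases that in differentiated tissues act on mRNAs of secreted proteins, for example in B cells and bone. They were low in ESCs, and their values in the siCnot1 libraries were mostly above those of siNT without passing the test. Tent5c (chromosome 3, 100375373 to 100396508, minus strand) had 63 and 74 counts in siNT and 110 and 98 in siCnot1. Its groups did not overlap, at 2.02 and 2.36 against 3.28 and 2.93 CPM, yet the log2 fold change of 0.50 (standard error 0.27) had an adjusted p of 0.172 in edgeR. The 95% interval of the fold was 0.963 to 2.08.

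Tent5b (chromosome 4, 133207444 to 133215251, plus strand) had 40 and 125 counts in siNT and 135 and 116 in siCnot1. Here siNT replicate 1 stood apart at 1.28 CPM, while the other 3 libraries lay between 3.46 and 4.03. The log2 fold change was 0.51 ± 0.33 (SE, adjusted p = 0.278 in edgeR). It rested on that library, since the value was -0.09 without siNT replicate 1 (adjusted p = 0.827 in edgeR) and 1.54 without siNT replicate 2 (adjusted p = 0.0360 in edgeR).

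Tent5a (chromosome 9, 85202492 to 85209203, minus strand) was the rarest member, with 2 and 10 counts in siNT and 20 and 22 in siCnot1. The siCnot1 libraries were both above the siNT libraries, of which replicate 1 was under the 3 counts taken as the floor. The log2 fold change was 1.69 ± 0.73 (SE, adjusted p = 0.0859 in edgeR), with a 95% interval of the fold from 1.13 to 9.18. The study's own threshold was an unadjusted p up to 0.05 together with a log2 fold change of 1 or more in size. Tent5a was the 1 member of the 10 past that threshold (unadjusted p = 0.0300 in edgeR's quasi-likelihood fit), which 7.98% of all genes tested also passed. Leaving out 1 library moved its log2 fold change between 0.96, without siNT replicate 1, and 3.21, without siNT replicate 2.

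Among the Tent5 pairs, Tent5a made up a larger part relative to Tent5b and Tent5c in both siCnot1 libraries than in either siNT library. The log2 ratio of Tent5a to Tent5b was -5.59 and -4.91 in siNT against -4.02 and -3.67 in siCnot1, and that of Tent5a to Tent5c was -4.93 and -2.84 against -2.41 and -2.11. In both cases the exact two-sided permutation p was 0.333, the smallest that 2 libraries against 2 can give (adjusted p = 0.833 over 5 pairs). In siNT replicate 1 both ratios rest on 2 counts of Tent5a, under the floor. With 1 count added to each gene, the difference between groups went from 1.41 to 1.12 over Tent5b and from 1.63 to 1.34 over Tent5c. For Tent5b over Tent5c the ratios overlapped, at 0.66 and 2.07 in siNT and 1.61 and 1.56 in siCnot1 (exact permutation p = 1).

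Mtpap encodes the mitochondrial poly(A) polymerase, which tails the mRNAs made from the mitochondrial genome. Mtpap (chromosome 18, 4375573 to 4399888, plus strand) had 58.4 and 57.8 CPM in siNT and 56.2 and 58.6 in siCnot1. The siCnot1 values lay on either side of the siNT values, and the log2 fold change was -0.02 ± 0.077 (SE, adjusted p = 0.903 in edgeR), with a 95% interval of the fold from 0.885 to 1.10. Its sign turned with upper-quartile scaling, library totals and without siCnot1 replicate 1.

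**Figure D3:**
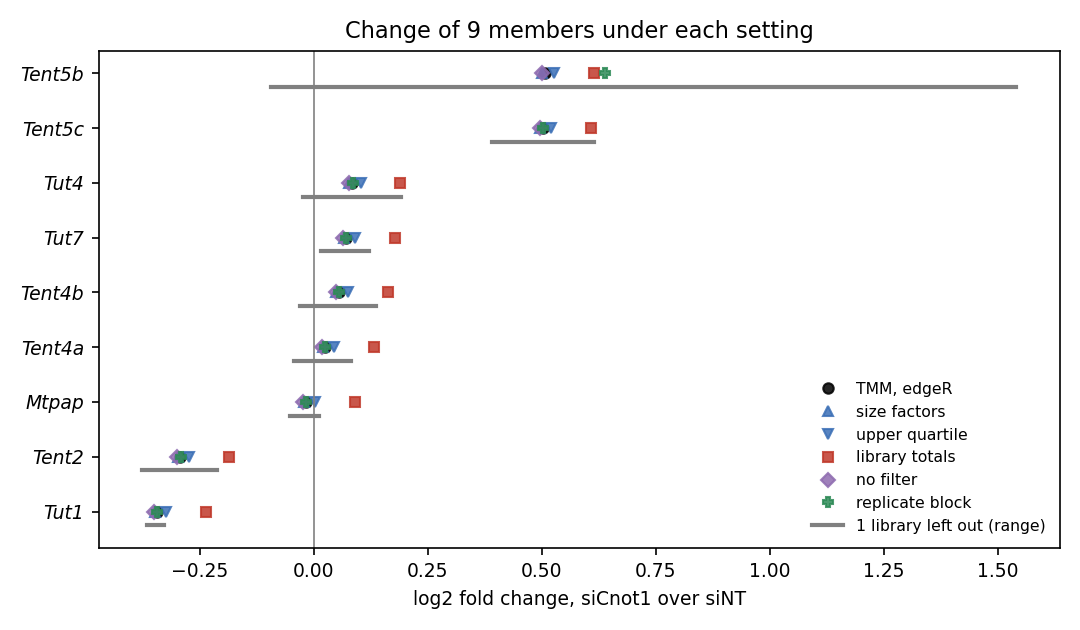
Log2 fold change, siCnot1 over siNT, of 9 members under different scalings, without the filter on low counts and with the replicate block; grey lines span the 4 fits that each leave out 1 library. Tut1 and Tent2 stay below 0 throughout, library totals move every gene to the right, and the grey line of Tent5b runs from -0.09 to 1.54. Tent5a lies outside the range of the other genes and is not drawn.

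Genes that work with the family were followed in 6 lists of 43 genes, of which 42 were tested. By edgeR's test 3 of them were higher and 13 lower, where 15.0% and 14.7% of all genes tested were. The median log2 fold change of the 42 genes was -0.13. With library totals in place of TMM, 5 were higher and 4 lower, and Qk, Fndc3a, Mtrex and Ssb were the 4. By that scaling 3989 of the 18144 genes tested were higher and 1567 lower. Fits without any 1 of the 4 libraries called fewer of the pathway genes and also fewer of all genes tested.

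Proteins that bind or recruit members gave the largest values. Of 12 adaptors, 2 were higher and 4 lower. Cpeb2, which encodes a cytoplasmic polyadenylation element binding protein of the family through which GLD2 is recruited to mRNAs, rose from 2.95 and 3.51 CPM in siNT to 7.25 and 9.52 in siCnot1. Its log2 fold change of 1.38 ± 0.20 (SE, adjusted p = 1.52e-05 in edgeR) was past the study's fold threshold as well. Among its relatives, Cpeb4 fell by 0.31 on the log2 scale (adjusted p = 0.0402 in edgeR), Cpeb3 was at -0.35 (adjusted p = 0.0839 in edgeR) and Cpeb1 at 0.18 (adjusted p = 0.556 in edgeR). Lin28b, one of the pair of LIN28 genes, rose from 24.7 and 30.5 CPM to 37.6 and 38.9, a log2 fold change of 0.47 ± 0.10 (SE, adjusted p = 0.00123 in edgeR). Lin28a, the more abundant of the pair in these libraries, had 235 and 236 CPM in siNT and 232 and 241 in siCnot1. Its log2 fold change was 0.006 ± 0.056 (SE, adjusted p = 0.954 in edgeR), with a 95% interval of the log2 value from -0.11 to 0.12. Qk encodes the RNA-binding protein quaking, of which an isoform brings GLD2 to RNA, and it fell from 331 and 356 CPM to 259 and 266 (log2 fold change -0.39, adjusted p = 1.57e-05 in edgeR). Fndc3a, whose protein binds TENT5 enzymes at the endoplasmic reticulum, fell by 0.30 on the log2 scale (adjusted p = 0.00209 in edgeR). Trim25, the remaining adaptor called lower, fell by 0.23 on the log2 scale (adjusted p = 0.00332 in edgeR).

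Oligouridylated ends are read by the LSM1-7 ring with PATL1, which leads to decapping, or are degraded by the nuclease DIS3L2. Of 10 genes in this list 0 were higher and 2 lower in edgeR, and 9 of the 10 values were below 0, with a median of -0.17, where 48.9% of all genes tested were below 0. With library totals 9 of 10 were below 0 with a median of -0.06, against 36.7% of all genes and a median of 0.12. Patl1 fell by 0.25 (adjusted p = 0.00848 in edgeR) and Eri1, the exonuclease that trims uridylated histone mRNAs, also by 0.25 on the log2 scale (adjusted p = 0.0103 in edgeR). Neither passed with library totals. Dis3l2 had 25.5 and 28.6 CPM in siNT and 32.03 and 32.4 in siCnot1, a log2 fold change of 0.25 (adjusted p = 0.0580 in edgeR), and was the 1 gene of the list with a value above 0.

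In the nucleus, TENT4B works with the helicase MTREX and ZCCHC7 to tag RNAs for the exosome, and PARN and TOE1 trim the adenosines back. Of these 6 genes, Rbm7 and Zcchc8 included, 2 were lower. Mtrex fell from 213 and 209 CPM to 153 and 155, a log2 fold change of -0.45 ± 0.057 (SE, adjusted p = 2.21e-06 in edgeR), and Rbm7 by 0.28 on the log2 scale (adjusted p = 0.00999 in edgeR). The list for the U6 snRNA that TUT1 extends held 5 genes, of which 2 were lower. Ssb, which encodes the La protein that binds the uridine tails of new U6, fell from 315 and 339 CPM to 248 and 252 (log2 fold change -0.39, adjusted p = 1.65e-05 in edgeR). Lsm8, the subunit that defines the nuclear ring on the U6 end, fell by 0.31 (adjusted p = 0.00958 in edgeR), whereas Usb1, the nuclease that trims U6, had a log2 fold change of 0.04 (adjusted p = 0.789 in edgeR).

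For mitochondrial RNA, 1 of 5 genes was higher and 2 were lower. Pnpt1, which encodes polynucleotide phosphorylase, rose by a log2 fold change of 0.20 (adjusted p = 0.0370 in edgeR), while Supv3l1, the helicase that works with it, fell by 0.25 on the log2 scale (adjusted p = 0.0128 in edgeR). Lrpprc, which stabilizes mitochondrial mRNAs and stimulates their polyadenylation, fell from 108 and 108 CPM to 94.9 and 95.6 (log2 fold change -0.18, adjusted p = 0.0307 in edgeR). Its partner Slirp was at -0.12 (adjusted p = 0.579 in edgeR).

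The canonical poly(A) polymerases were included as the template-free enzymes of another class. Papola, the main enzyme that tails nuclear mRNAs, had 435 and 446 CPM in siNT and 392.05 and 399.6 in siCnot1, a log2 fold change of -0.16 ± 0.054 (SE, adjusted p = 0.0317 in edgeR) that did not pass with library totals (adjusted p = 0.518 in edgeR). It was the 1 gene called of the 4 tested in that list, and 0 were higher. Besides canonical poly(A) polymerases, the 4 included the CCA-adding enzyme. Tent5d, the family member outside the 10, had 4 and 0 counts in siNT and 0 and 8 in siCnot1 and was not tested.

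**Figure D4:**
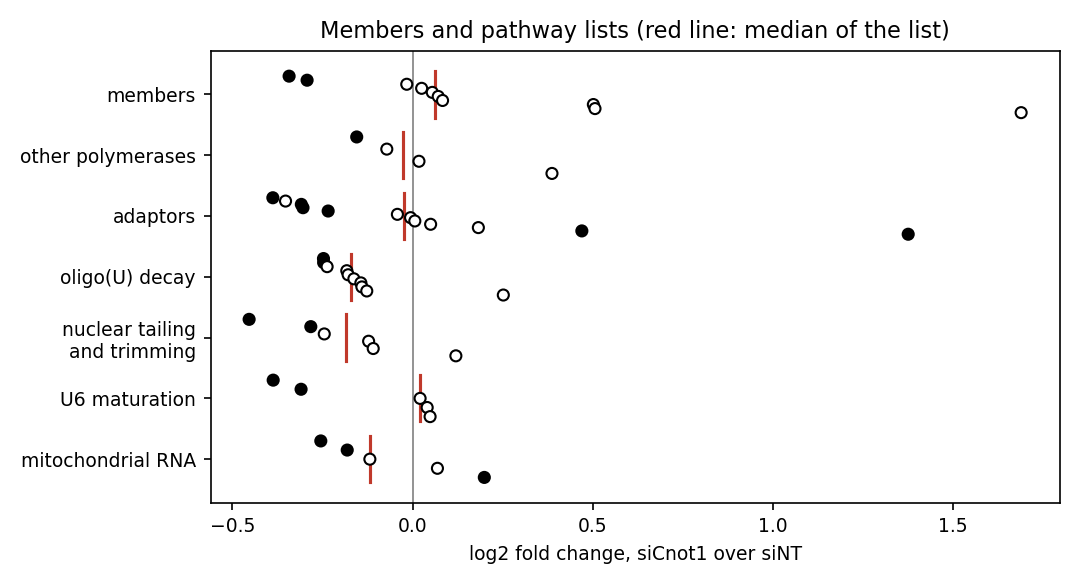
Log2 fold change, siCnot1 over siNT, of the members and of each gene tested in the 6 pathway lists (edgeR, n = 2 libraries per group). Filled points have an adjusted p under 0.05 over all genes tested, and red lines are medians of the lists. The points farthest to the right are Tent5a, which is open, and Cpeb2, which is filled, and the farthest to the left is Mtrex.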

How the data were processed

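The authors isolated poly(A)+ RNA, prepared strand-marked (dUTP) libraries, sequenced them as paired ends on an Illumina NovaSeq and deposited raw counts per gene, neither normalized nor pooled. The submitters' processing notes name fastp 0.19.4, HISAT2 2.2.1, DESeq2 1.40.2 and mm10. The counting program is not given in the sources used here. The deposited positions are not those of mm10 (3.55% of 37796 genes had an end within 1000 bases of GENCODE M21) and were taken as GRCm39. RPKM was computed from the counts and the exon lengths deposited with them.

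Genes passing edgeR's filterByExpr (minimum count 10) were tested with edgeR 4.0.16 in R 4.3.3 (TMM scaling, quasi-likelihood test, condition as the only term). Benjamini-Hochberg adjustment ran over all genes tested. Standard errors are the log2 fold change over the root of the F statistic. Floors of 3 counts (0.0921 to 0.0934 CPM) and intervals of counts cover counting error only. Alternatives were other scalings and filters, DESeq2 1.42.0, limma-voom (limma 3.58.1), a replicate block and leaving out each library. The fits were tested on simulated data.

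All 10 members are named. From each pathway list, the called genes with the 2 smallest p in each direction are named, with Papola, Lin28a, Dis3l2, Lrpprc and Slirp in any case. Usb1, Tent5d, Cpeb1, Cpeb3, Cpeb4, Trim25, the marker genes and the genes sharing sequence with members were named after their values were seen. The members and lists were chosen with earlier results of these data known.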

Additional observations from a re-analysis of the deposited data

How the results depend on the processing

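Across scalings, filters, tests and left-out libraries, Tut1 and Tent2 kept their direction. With library totals 1 member was higher and 1 lower, and without a filter on low counts 0 were higher and 1 lower. At the study's threshold 1 was higher and 0 lower, and in the pathway lists 1 and 0. Pathway list genes numbered 5 higher and 4 lower with library totals, and 1 and 6 without the filter. Of all genes tested, 3989 of 18144 were higher and 1567 lower with library totals. Without the filter 1303 of 30308 were higher and 1450 lower. Leaving out 1 library gave fewer calls among the members, the pathway genes and all genes tested. Directions turned for Mtpap, Tent4a, Tent4b and Tut4, whose values were near 0, and for Tent5b without siNT replicate 1. Mtpap was 0.00303 with upper-quartile scaling and 0.0903 with library totals. With 1 library left out, values ranged from -0.0429 to 0.0808 for Tent4a, from -0.0305 to 0.137 for Tent4b, from -0.0949 to 1.54 for Tent5b, from -0.0239 to 0.191 for Tut4 and from -0.0530 to 0.0103 for Mtpap. These fits assume that the lone library varies like the other group, and the cause of the changes was not tested, apart from the median of all genes, which library totals put at 0.12.

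With the replicate block, 2 members were lower and 0 higher, and 3 pathway genes were higher and 10 lower. Of the 18144 genes tested, 2524 were higher and 2431 lower with that block. The replicate numbers were not taken to pair the samples, since libraries with the same number did not deviate together (correlation of their deviations across genes -0.0057). The Tent5 genes had 2 to 135 counts per library, and their intervals were the widest of the members.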
